A study of Oncorhynchus mykiss with 24 samples.

Results

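Parvalbumins were covered by 25 of the 16028 distinct expressed sequence tags (ESTs) spotted on a salmonid cDNA array. They are the ESTs whose description in the scanner output contains the word parvalbumin. The descriptions separate 6 forms. Parvalbumin beta 1 had 5 ESTs, a parvalbumin beta described by an Atlantic salmon (Salmo salar) clone had 1, parvalbumin beta 2 had 8, parvalbumin-2 had 8, parvalbumin-7 had 2 and thymic parvalbumin had 1. The names are those of the array's annotation, and near-identical parvalbumin transcripts can bind the same cDNA spot, so a form is a label and not a resolved gene.

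The samples were 48 whole rainbow trout (Oncorhynchus mykiss) embryos on 24 arrays. They were females and males of QTL genotype OSU/CW or OSU/OSU, sampled 15, 19 and 28 days after fertilization (days post fertilization, dpf), with 4 embryos in each of the 12 groups. The times correspond to the eyed stage, caudal flexing and the start of hatching. The quantitative trait locus (QTL) acts on embryonic development rate, CW is the allele of the fast Clearwater clonal line and OSU that of the slow Oregon State University clonal line. All embryos came from the same backcross, in which eggs of an OSU female were fertilized by an XY OSU/CW male of the preceding backcross generation, so every embryo carried OSU alleles and the groups model the QTL only in this background. Each array set an OSU/CW embryo against an OSU/OSU embryo of its sex and time. The genotypes were therefore compared within arrays, while sexes and times were compared between arrays. The labels number each embryo as a separate individual.

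Parvalbumins are small EF-hand proteins that bind calcium in the cytosol. In fast skeletal muscle they take up calcium released during a twitch and so speed relaxation, and they are among the most abundant soluble proteins of white muscle in fish. Vertebrates have an alpha and a beta lineage. Beta 1 and beta 2 are the names used for muscle parvalbumins of salmonids, which are also the major fish allergens, parvalbumin-7 marks Purkinje cells of the cerebellum in zebrafish, and thymic parvalbumin was described from the chicken thymus.

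Of the 25 ESTs, 23 were among the 11439 ESTs tested. An EST was tested when its signal lay above the 90th percentile of the negative control spots (the limit) in at least 16 of 48 channels and no sex and time had fewer than 2 arrays with a value. CB496509 of parvalbumin-2 was not tested because too few arrays of 28 dpf had a usable spot, although all 8 embryos measured there lay above the limit. It had a lowest, median and highest log2 intensity of 9.70, 10.26 and 12.41 at 15 dpf, 9.76, 10.62 and 11.91 at 19 dpf, and 11.11, 13.50 and 14.31 at 28 dpf. The 3 times overlapped. CB493149 of parvalbumin-7 was above the limit in 3 embryos of 19 dpf and in 0 embryos of 15 and 28 dpf, with medians of 8.46, 8.82 and 8.30 at the 3 times. The limit itself differed between times. It was 2433 to 17783 units of raw signal at 15 dpf, 1918 to 21052 at 19 dpf and 802 to 4648 at 28 dpf. The ESTs above it per channel numbered 4513 to 10998 at 15 dpf, 3606 to 12462 at 19 dpf and 6436 to 13366 at 28 dpf. These ranges overlapped, so a lower limit in raw units does not by itself mean that dim spots were measured better. No pair of embryos had identical values, no parvalbumin spot exceeded 51647 units, and the log ratios of a pair of arrays correlated at -0.56 to 0.52. The direction of every ratio was taken from the dyes in the labels, and no common reference was used.

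The first question was how each form behaved over development. Parvalbumin ESTs rose between 15 and 28 dpf in 22 of 23 cases, and 0 fell (limma, FDR 0.05). The filter could be met by the 16 channels of 28 dpf alone, so it could admit an EST through the time where it was high. Most of the 23 reached 16 channels only with those of 28 dpf, so the counts of rises to 28 dpf are not independent of the filter. CB493603, for example, was above the limit in 0, 2 and 16 embryos of 15, 19 and 28 dpf. CB509706 (0, 3 and 14) and CB510226 (0, 6 and 14) were alike. Others, such as CB494458 (6 and 14 embryos of 15 and 19 dpf) and CK991348 (9 and 11), met it without 28 dpf. The same filter applied to all ESTs, and the count does not cover CB493149 and CB496509, which were not tested. Over all ESTs tested, 18.3% rose and 19.2% fell in this comparison. The median difference of the 23 was 4.28 on the log2 scale, beside -0.003 over all ESTs. In 20 of 23, every measured embryo of 28 dpf lay above every embryo of 15 dpf, which held for 2.33% of all ESTs. The exceptions were CB492406 of beta 2, CK991348 of parvalbumin-7 and CB496913, the thymic form. In whole embryos, more muscle cells and more parvalbumin RNA per cell cannot be told apart.

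Between 15 and 19 dpf 16 of 23 rose and 0 fell, against 2.26% and 0.288% of all ESTs. Between 19 and 28 dpf 22 of 23 rose and 0 fell, against 7.49% and 8.8% of all ESTs. The later interval also carried the larger differences, with a median of 2.93 against 1.29 for the earlier interval. Every measured embryo of 28 dpf lay above every embryo of 19 dpf in 20 of 23 ESTs (0.796% of all ESTs), and every embryo of 19 dpf above every embryo of 15 dpf in 3 of 23 (0.149% of all ESTs). Those 3 were CA770081 and CB494458 of beta 1 and CB510271 of beta 2.

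**Figure D1:**
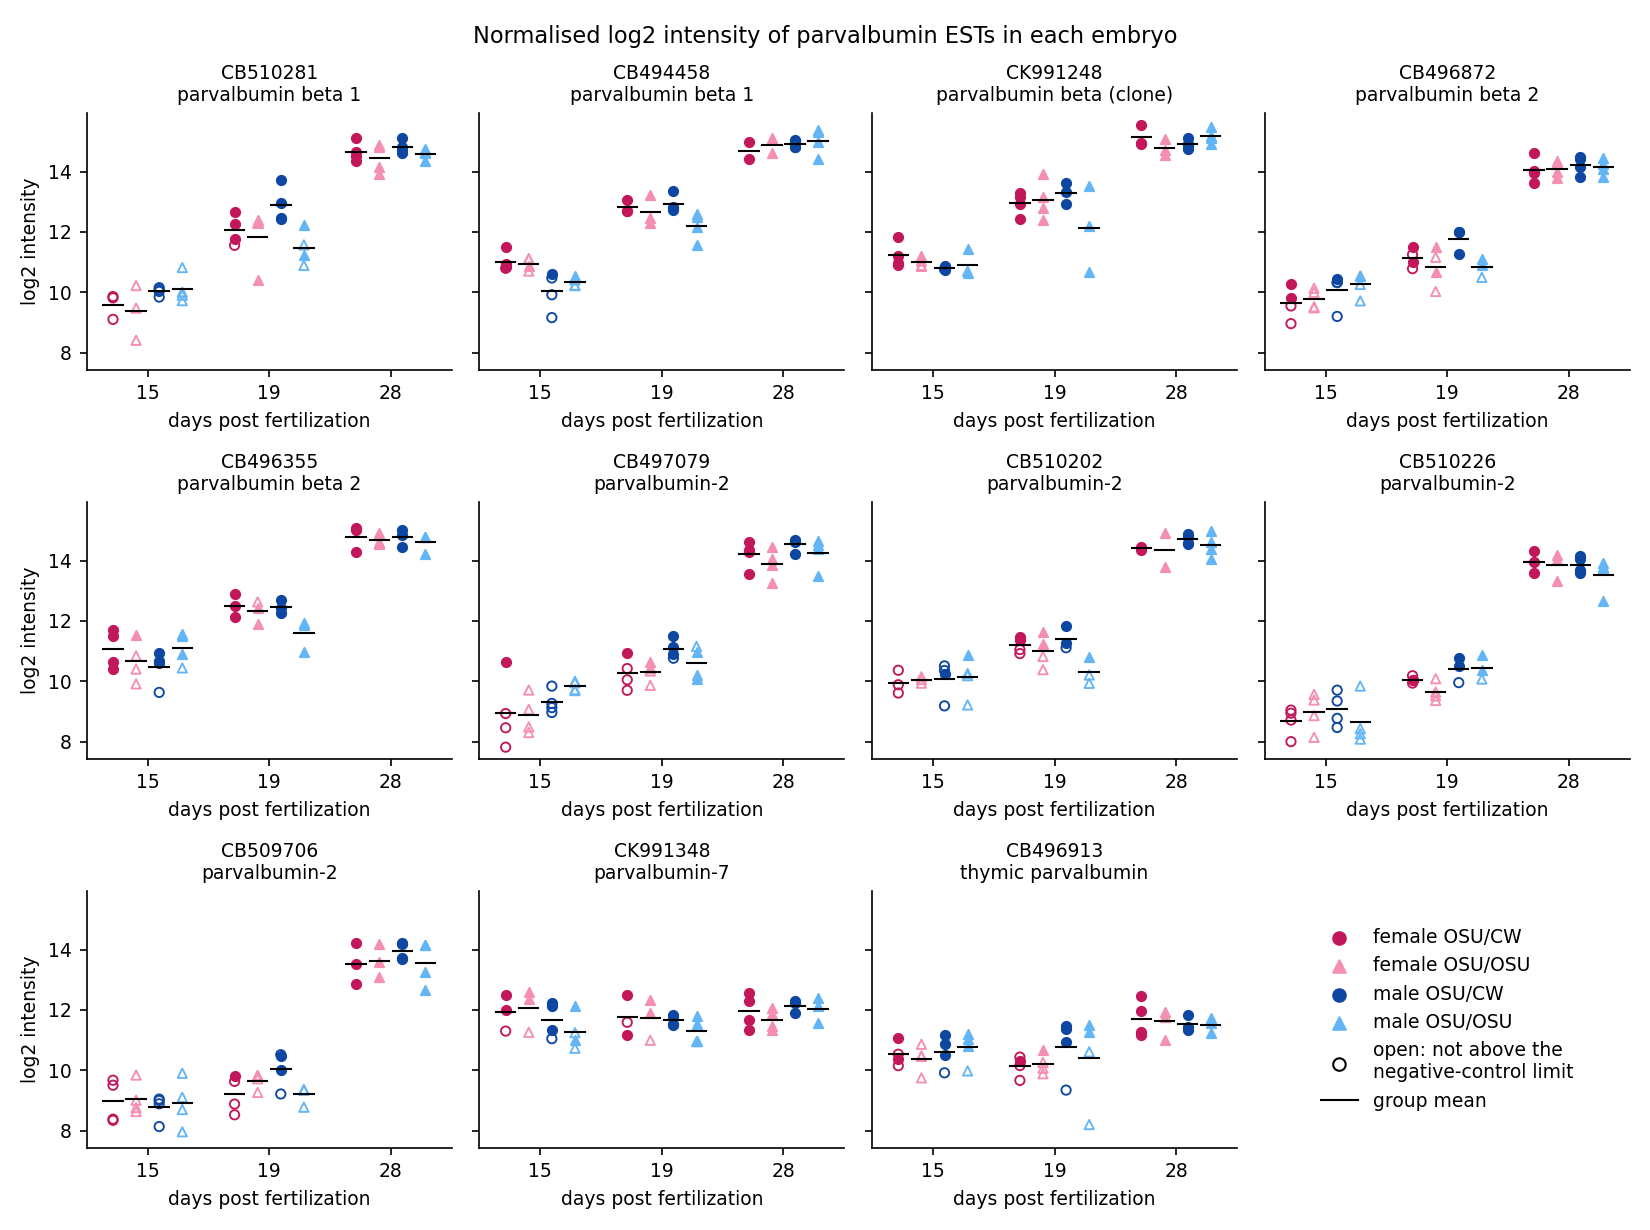
Normalized log2 intensity (vertical axis) of 11 parvalbumin ESTs in each embryo against days post fertilization, females in red tones and males in blue, OSU/CW as circles and OSU/OSU as triangles. Open symbols are spots not above the negative-control limit and lines are group means of up to 4 embryos. The ESTs of beta 1, beta 2 and parvalbumin-2 sit highest at 28 dpf in all 4 groups, while CK991348 of parvalbumin-7 stays between 10.73 and 12.58 throughout.

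In parvalbumin beta 1 all 5 ESTs rose in both intervals, with median differences of 1.82 between 15 and 19 dpf and 2.65 between 19 and 28 dpf. CB510281 had a lowest, median and highest log2 intensity of 8.42, 9.89 and 10.82 at 15 dpf, 10.40, 12.27 and 13.73 at 19 dpf, and 13.92, 14.64 and 15.12 at 28 dpf. The ranges of neighbouring times overlapped only between 15 and 19 dpf. It was above the limit in 0 of 14 measured embryos of 15 dpf, in 12 of 16 of 19 dpf and in all 16 of 28 dpf. Its difference was 2.29 ± 0.24 (SE) between 15 and 19 dpf (adjusted p = 3.11e-08) and 2.55 ± 0.23 between 19 and 28 dpf (adjusted p = 8.49e-11).

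CB494458 had 9.17, 10.66 and 11.49 at 15 dpf, 11.57, 12.69 and 13.36 at 19 dpf, and 14.40, 14.98 and 15.36 at 28 dpf. The 3 times did not overlap in this EST. Its differences were 2.06 ± 0.20 and 2.22 ± 0.22, and it was above the limit in 6 of 16 embryos of 15 dpf and in all measured embryos of 19 and 28 dpf. The EST of the Atlantic salmon clone, CK991248, behaved likewise, with 10.63, 10.90 and 11.83 at 15 dpf, 10.69, 13.03 and 13.93 at 19 dpf, and 14.55, 14.93 and 15.55 at 28 dpf. Its differences were 1.87 ± 0.27 (adjusted p = 1.42e-05) and 2.14 ± 0.27 (adjusted p = 2.65e-07). At 19 dpf 1 male OSU/OSU embryo, on array 11, had 10.69 and lay among the embryos of 15 dpf.

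In parvalbumin beta 2, 7 of 8 ESTs rose between 15 and 19 dpf and 8 of 8 between 19 and 28 dpf, with medians of 1.34 and 2.71. CB496872 had 8.97, 10.07 and 10.55 at 15 dpf, 10.03, 11.13 and 12.01 at 19 dpf, and 13.62, 14.11 and 14.63 at 28 dpf. Its embryos of 28 dpf lay well clear of both earlier times, which overlapped each other. It rose by 1.19 ± 0.21 (adjusted p = 0.000197) and then by 2.99 ± 0.21 (adjusted p = 4.54e-14). CB496355 had 9.64, 10.76 and 11.71 at 15 dpf, 10.96, 12.34 and 12.88 at 19 dpf, and 14.22, 14.79 and 15.09 at 28 dpf, with differences of 1.39 ± 0.22 and 2.49 ± 0.24.

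The remaining EST of beta 2, CB492406, did not follow the other 7. Its embryos ranged between 9.04 and 13.81 at 15 dpf and between 10.14 and 14.06 at 28 dpf, and its difference between 15 and 19 dpf was -0.11 ± 0.45 (adjusted p = 0.942). It rose by 1.96 ± 0.47 between 19 and 28 dpf (adjusted p = 0.00364) and by 1.86 ± 0.47 between 15 and 28 dpf, a call lost without background subtraction (0.87). At 28 dpf both embryos of an array had close values, and arrays differed widely. On array 34 of the 15 dpf males the embryos had 13.81 (OSU/CW) and 12.51 (OSU/OSU), and on array 38 of the 28 dpf females they had 10.14 (OSU/CW) and 10.21 (OSU/OSU).

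Like the beta forms, parvalbumin-2 had its larger median difference in the later interval. Of its 7 tested ESTs, 3 rose between 15 and 19 dpf and 7 between 19 and 28 dpf, with median differences of 0.71 and 3.65. CB510226 had 8.01, 8.83 and 9.85 at 15 dpf, 9.37, 10.07 and 10.87 at 19 dpf, and 12.67, 13.85 and 14.32 at 28 dpf. It was above the limit in 0 of 16 embryos of 15 dpf, 6 of 14 of 19 dpf and all 14 of 28 dpf, and its differences were 1.29 ± 0.27 (adjusted p = 0.00248) and 3.65 ± 0.28 (adjusted p = 1.07e-12).

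CB509706, also parvalbumin-2, had 7.97, 8.95 and 9.91 at 15 dpf, 8.53, 9.50 and 10.52 at 19 dpf, and 12.66, 13.71 and 14.22 at 28 dpf. The earlier difference of 0.60 ± 0.25 did not pass (adjusted p = 0.217), with 3 of 16 embryos of 19 dpf above the limit, and the later one was 4.12 ± 0.26 (adjusted p = 6.69e-15), from a level at 19 dpf that was mostly not above the limit. CB497079 had medians of 9.20, 10.54 and 14.36 at 15, 19 and 28 dpf and rose by 1.32 ± 0.25 and 3.65 ± 0.25. CB510202 had medians of 10.17, 11.09 and 14.57 and rose by 0.93 ± 0.23 (adjusted p = 0.016) and 3.50 ± 0.24. The earlier call was lost without array 34 (0.78). The 4 ESTs of this form that did not pass in the earlier interval had differences of 0.58 to 0.71. The forms were not tested against each other, because their ESTs are not replicates.

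The other forms differed less between times. CK991348 of parvalbumin-7 had 10.73, 11.67 and 12.58 at 15 dpf, 10.95, 11.56 and 12.51 at 19 dpf, and 11.33, 11.98 and 12.57 at 28 dpf. The 3 times overlapped almost fully, and its difference between 15 and 28 dpf was 0.21 with a 95% interval of -0.26 to 0.69 (adjusted p = 0.5). The thymic form, CB496913, had 9.76, 10.52 and 11.22 at 15 dpf, 8.21, 10.39 and 11.51 at 19 dpf, and 11.01, 11.64 and 12.46 at 28 dpf. It rose by 1.21 ± 0.28 between 19 and 28 dpf (adjusted p = 0.00281), with 7 of 16 embryos of 19 dpf above the limit. The call was lost when the arrays were not brought to a common scale, with a difference of 0.46 beside a median of -0.61 over all ESTs.

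**Figure D2:**
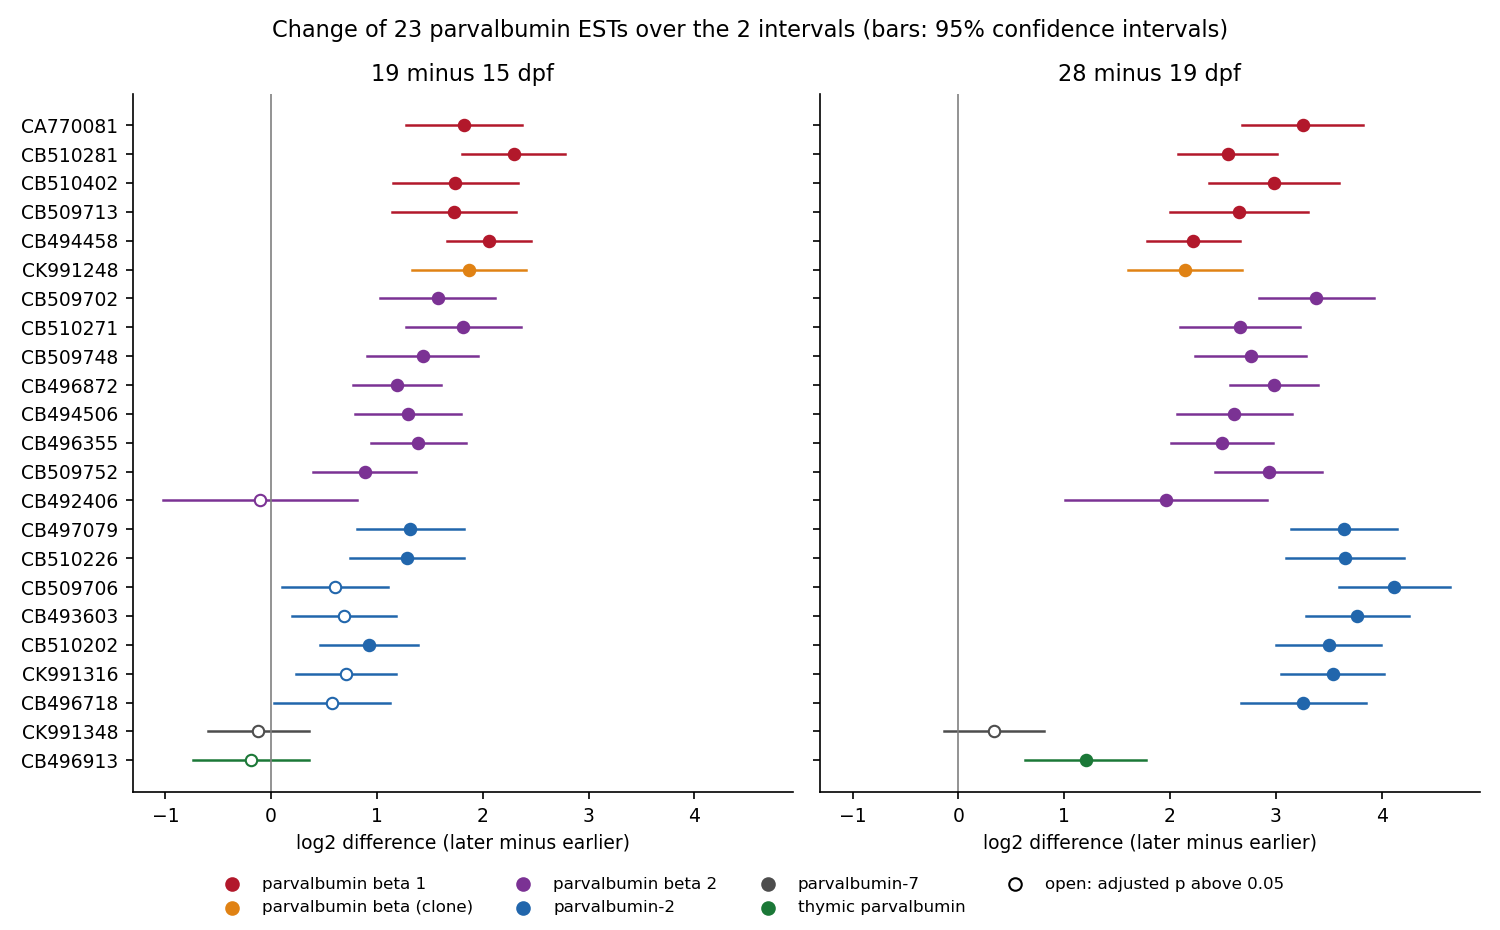
Log2 difference (horizontal axis) of the 23 tested parvalbumin ESTs between 15 and 19 dpf (left) and between 19 and 28 dpf (right), later minus earlier, with 95% confidence intervals and the form shown by colour. Filled points passed FDR 0.05 over all ESTs. Parvalbumin-2 sits at 0.58 to 1.32 on the left and at 3.26 to 4.12 on the right, while beta 1 sits at 1.73 to 2.29 and 2.22 to 3.25.

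For 8 ESTs no measured embryo of 15 dpf was above the limit, so their fold changes depend on the floor set there. The first floor was the higher of each array's dimmest signal above the limit and the EST's own value. It equalled the EST's own mean for CB510281, CB510402 and CB509702 and lay close to it for the rest. The folds against it are thus near the plain estimates and are not firm lower bounds. At 28 dpf against 15 dpf CA770081, CB510281 and CB510402 of beta 1 were 33.0-fold, 27.8-fold and 26.1-fold higher. CB509702 and CB510271 of beta 2 were 31.1-fold and 22.5-fold higher. CB493603, CB509706 and CB510226 of parvalbumin-2 were 21.9-fold, 26.1-fold and 29.3-fold higher. A stricter floor, the median level of spots just above the limit, gave at least 4.41-fold to 12.6-fold higher for the same 8. With it, CB510281 and CB510402 alone had a bound above 1 at 19 dpf against 15 dpf, at least 2.16-fold and 1.197-fold higher. For the others a change in the earlier interval was measured below the limit in part of the embryos. The limit was lower at 28 dpf than at 15 dpf, and its part in the differences between times was not tested. Without background subtraction 8, 22 and 21 of 23 ESTs still rose in the earlier interval, the later interval and between 15 and 28 dpf. The 8 of the earlier interval were all 5 of beta 1, the clone's EST and 2 of 8 in beta 2. In parvalbumin-2 0 of 7 rose there, and the median differences were 0.53 in beta 2 and 0.24 in parvalbumin-2.

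The spread between embryos of a group was lowest at 28 dpf. The median over the 23 ESTs of the SD within groups was 0.55 at 15 dpf, 0.50 at 19 dpf and 0.39 at 28 dpf, where all tested ESTs but CB492406 were above the limit in every measured embryo.

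Other muscle genes give the setting of these changes. Skeletal muscle markers (skeletal actin, fast myosins, skeletal troponins T and I and muscle creatine kinase) rose in 28, 35 and 42 of 44 tested ESTs between 15 and 19, 19 and 28, and 15 and 28 dpf, with 0 falling. The summed log2 level of the 8 measured in all 48 embryos ranged between 14.81 and 15.91 at 15 dpf, 15.67 and 16.75 at 19 dpf and 16.63 and 17.33 at 28 dpf. The median differences of the 44 were 0.90, 0.90 and 1.70 in the same order of comparisons, beside 1.29, 2.93 and 4.28 for the 23 parvalbumin ESTs. Troponin I, fast skeletal muscle (CB509543) had the largest difference of the list between 15 and 28 dpf, 5.16 ± 0.30. Troponin T, fast skeletal muscle (CB498116) rose by 3.71 ± 0.20.

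The machinery that releases calcium in muscle and pumps it back rose in both intervals. Of its 21 tested ESTs 16, 17 and 19 rose in the same 3 comparisons and 0 fell, with medians of 1.19 for the earlier and 1.14 for the later interval. CB510691, sarcoplasmic/endoplasmic reticulum calcium ATPase 1, the calcium pump of fast muscle, rose by 2.34 and then by 1.48. CB494076, calsequestrin-1, which stores calcium in the reticulum, rose by 1.31 and 1.27. For troponin C, the calcium sensor of the thin filament, 2, 3 and 3 of 6 ESTs rose, with CB496985 of the skeletal muscle form up by 2.63 ± 0.17 between 15 and 28 dpf. Of 29 other EF-hand calcium binders, such as calmodulin and S100 proteins, 0 rose between 15 and 19 dpf, 3 between 19 and 28 dpf and 10 between 15 and 28 dpf, where 3 fell.

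For markers of other tissues the shares of all ESTs given above apply. Lens crystallins rose in 23, 20 and 41 of 45 ESTs and fell in 0, 1 and 2. Type I and II keratins rose in 5, 3 and 9 of 32 and fell in 0, 0 and 4, near the share of all ESTs between 19 and 28 dpf (7.49% rose). Hemoglobin subunits fell in 0, 24 and 21 of 52 and rose in 2, 2 and 5. The part of tissue proportions in the parvalbumin differences was not tested.

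The study was made to compare the sexes before the gonads differ in form. Its rule takes the ESTs that pass an overall test of all 12 groups at FDR 0.05 and then an FDR of 0.2, read here as 1 adjustment over all 66 pairs of groups, which the methods do not settle. The overall test was passed by 20 of the 23 parvalbumin ESTs and by 13.6% of all ESTs. Because the rule pools the small p-values between times with those between sexes, it called sex differences with unadjusted p up to 0.106. By this rule 3 parvalbumin ESTs differed between the sexes in OSU/CW embryos of 15 dpf (2.78% of all ESTs), 5 in OSU/OSU embryos of 15 dpf (1.94%), 9 in OSU/CW embryos of 19 dpf (5.3%), 7 in OSU/OSU embryos of 19 dpf (3.19%) and 0 in either genotype at 28 dpf (1.14% in OSU/CW and 1.2% in OSU/OSU). A call needs the overall test, so the shares of all ESTs do not set parvalbumins against other ESTs that passed it. Of the 1556 ESTs that passed, 318 (OSU/CW) and 222 (OSU/OSU) were called at 15 dpf, and 606 and 365 at 19 dpf. Of the 20 parvalbumin ESTs that passed, 3, 5, 9 and 7 were called. Adjusted within each comparison 0 of the 24 parvalbumin calls passed, with adjusted p of 0.414 or more (limma). The rule made 15 calls without array 11, 12 without background subtraction, 11 with loess alone and 0 with only the arrays of a time. Other readings of its second step made 0 to 3 calls. At 28 dpf it made 2 calls in OSU/CW without background subtraction, and 3 in OSU/CW and 1 in OSU/OSU with loess alone.

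At 19 dpf the called ESTs ran in different directions in OSU/CW and OSU/OSU embryos. In OSU/CW embryos all 9 called ESTs were lower in females, and 18 of the 23 tested were below 0, with a median of -0.45. Of all ESTs 51.6% were above 0 in this comparison. CB510281 had 12.66, 11.56, 11.77 and 12.25 in OSU/CW females, against 12.97, 13.73, 12.47 and 12.42 in OSU/CW males. These ranges overlapped, and the difference was -0.84 ± 0.37 (adjusted p = 0.426 by limma). CB509706 had 9.64, 8.53, 8.89 and 9.82 in OSU/CW females, against 10.46, 10.52, 10.02 and 9.22 in OSU/CW males, of which 1 female and 2 males were above the limit. Its difference was -0.84 ± 0.40 (adjusted p = 0.461 by limma).

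In OSU/OSU embryos of 19 dpf 5 called ESTs were higher in females and 2 lower. Of the 23, 16 were above 0 (53.9% of all ESTs), with a median of 0.34. The higher ones were CB509713 of beta 1 (1.03), the clone's CK991248 (0.89), CB494506 (0.65) and CB496355 (0.73) of beta 2, and CB510202 of parvalbumin-2 (0.67). The lower ones were CB493603 (-1.18) and CB510226 (-0.79), both parvalbumin-2. CB510226 had 9.52, 9.37, 10.09 and 9.65 in OSU/OSU females, against 10.37, 10.87 and 10.08 in OSU/OSU males, and the groups overlapped by a small margin. Of these embryos 0 females and 2 males were above the limit. CB493603 was above the limit in 0 embryos of these groups, so no fold is given. The difference of CK991248 was 0.20 without array 11, which holds the male embryo at 10.69.

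CB493603 was the only EST called in the same direction in both genotypes at 19 dpf. A test of the difference between genotypes (the interaction of sex and genotype) passed in 0 of 23 ESTs at 15, 19 and 28 dpf, and in 0% of all ESTs. At 19 dpf the interaction was above 0 in 2 of the 23 (49.8% of all ESTs), with a median of -0.63. An unadjusted p under 0.05 was reached by 8 of them (6.29% of all ESTs), and the smallest adjusted p was 0.484. Tests of whether the difference between 15 and 28 dpf depended on sex or on genotype also passed in 0 of 23, against 0.00874% and 0% of all ESTs. Both comparisons of the sexes at a time use the same 8 arrays.

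At 15 dpf CB494458 of beta 1 was higher in females of both genotypes, by 0.99 ± 0.31 in OSU/CW (adjusted p = 0.491 by limma) and by 0.58 ± 0.31 in OSU/OSU. It averaged 11.02 ± 0.32 in OSU/CW females and 10.05 ± 0.66 in OSU/CW males (SD, n = 4 each), with 3 of the 4 females and 1 of the 4 males above the limit. In OSU/OSU embryos the female mean was 10.95 ± 0.20 and the male mean 10.36 ± 0.15 (SD of 4 embryos). These groups did not overlap, but 1 of the 4 females and 1 of the 4 males were above the limit. CB509713 of the same form was lower in females of both genotypes, with differences of -0.78 in OSU/CW and -0.83 in OSU/OSU. CB496355 of beta 2 was higher in OSU/CW females (0.56), and CB510281, CB509748 and CB497079 were lower in OSU/OSU females (-0.89, -0.71 and -1.05), of which CB510281 and CB497079 were above the limit in 0 embryos of these groups. The study itself listed CB510226 and CB509706 as higher in females and CB510281 as higher in males at 15 dpf, without naming the genotype. Here CB510226 and CB509706 were called in neither genotype at 15 dpf, where both were above the limit in 0 embryos. CB510281 was called in OSU/OSU alone, with a smaller difference than the study listed. Why the results differ was not tested. At 15 dpf the OSU/CW embryo was labelled with Cy5 on 3 of the 4 female arrays and on 1 of the 4 male arrays, so dye and sex were not balanced there within a genotype, and dye was a term of the fit.

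**Figure D3:**
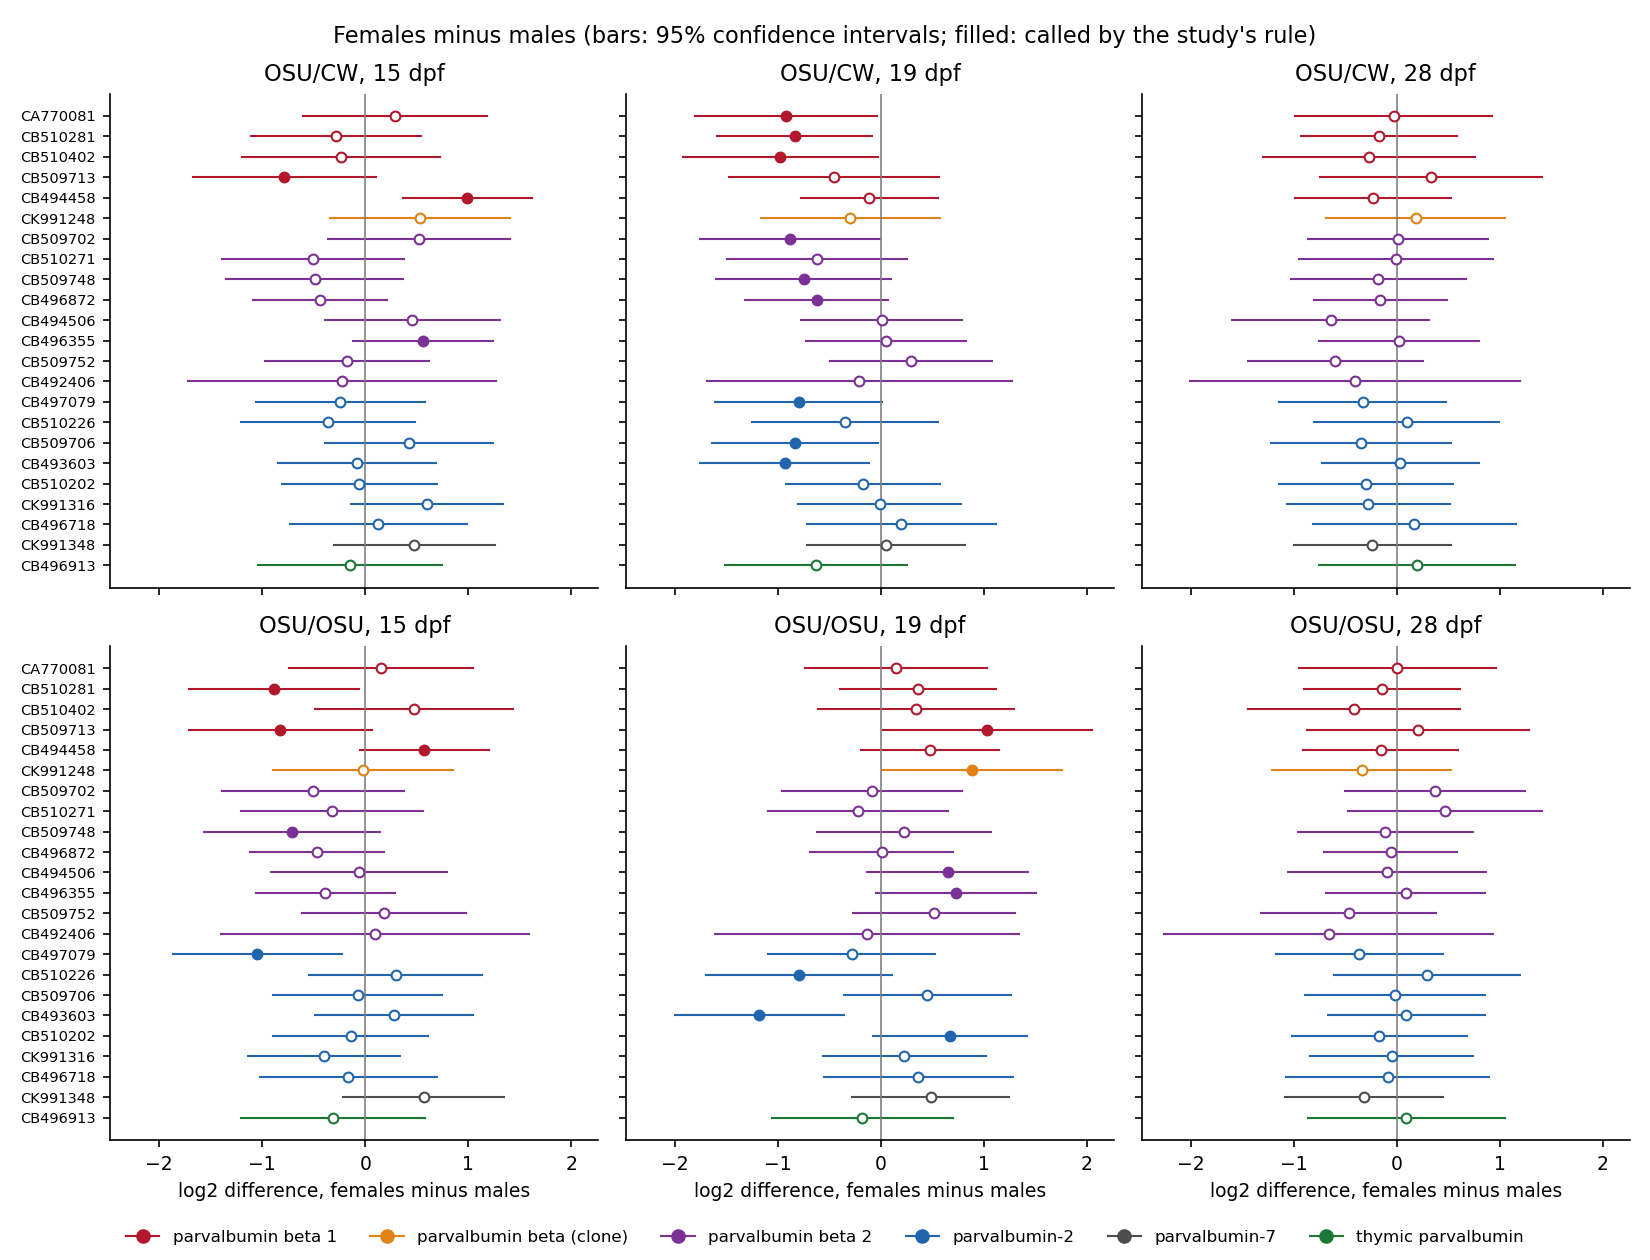
Log2 difference of females minus males (horizontal axis) for the 23 tested parvalbumin ESTs in OSU/CW (top) and OSU/OSU embryos (bottom) at 15, 19 and 28 dpf, with 95% confidence intervals and the form shown by colour. Filled points were called by the study's rule. At 19 dpf the filled points lie left of 0 in OSU/CW and on both sides of 0 in OSU/OSU, and at 28 dpf none is filled.

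With the genotypes averaged, 0 of 23 parvalbumin ESTs passed FDR 0.05 between the sexes at any time (limma). The share of all ESTs was 0.00874% at 15 dpf, 0% at 19 dpf and 0.00874% at 28 dpf, and an unadjusted p under 0.05 was reached by 2, 1 and 0 of the 23, against 6.198%, 8.72% and 3.33% of all ESTs. At 28 dpf, where all but CB492406 were measured above the limit in every embryo with a value, the differences between the sexes of the 23 ranged between -0.53 and 0.27.

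At 28 dpf the groups of embryos overlapped in the ESTs followed most closely. CB510281 had 15.09, 14.35, 14.52 and 14.63 in OSU/CW females and 15.12, 14.61, 14.82 and 14.72 in OSU/CW males. It had 14.87, 13.92, 14.81 and 14.14 in OSU/OSU females and 14.34, 14.74, 14.60 and 14.65 in OSU/OSU males. The lowest embryo was an OSU/OSU female and the highest an OSU/CW male. CB510226 had 14.32, 13.94 and 13.60 in OSU/CW females and 14.14, 13.59, 14.05 and 13.69 in OSU/CW males. It had 14.00, 13.31 and 14.19 in OSU/OSU females and 12.67, 13.75, 13.91 and 13.79 in OSU/OSU males, of which 1 male lay below all others. CB509706 ranged over 12.87 to 14.22 in OSU/CW females, 13.68 to 14.22 in OSU/CW males, 13.08 to 14.18 in OSU/OSU females and 12.66 to 14.15 in OSU/OSU males.

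The genotypes at the QTL were compared within arrays. At 19 dpf all 23 parvalbumin ESTs had a higher mean in OSU/CW than in OSU/OSU embryos, as did 48.8% of all ESTs. These ESTs were read in the same embryos on the same arrays, so they are not replicates and such counts are not independent. The differences of the 23 were 0.13 to 0.81 with a median of 0.49, beside -0.006 over all ESTs. None of the 23 passed FDR 0.05, nor did any of the 11439 ESTs tested (0%). An unadjusted p under 0.05 was reached by 16 of the 23. Of all 11439 ESTs tested, 3.35% both reached it and had a higher mean in OSU/CW, and 5.89% reached it in either direction. Among the 23 the count was 1 at 15 dpf and 0 at 28 dpf, against 5.48% and 4.73% of all ESTs in either direction. The medians of the 23 there were -0.0004 and 0.03. A higher mean in OSU/CW was found in 11 and 15 of the 23 (50.4% and 51.7% of all ESTs).

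CB510281 had the smallest p, with a difference of 0.81 ± 0.18 (SE, 1.76-fold, adjusted p = 0.237 by limma). The model set 1 correlation within arrays, 0.538, for all ESTs, so this SE does not rest on the EST's own ratios alone. The same holds for the other genotype differences. With a mixed model fitted to each EST, the smallest adjusted p of the 23 was 0.714. The log2 ratios of CB510281, OSU/CW over OSU/OSU, on the 4 female arrays of 19 dpf were 0.25, -0.73, -0.52 and 1.85. On the 4 male arrays they were 1.72, 2.15, 0.25 and 1.53. These ratios spread more widely between arrays than the SE of 0.18 conveys. CB510281 was higher in OSU/CW on 6 of 8 arrays, on all 4 of the males and on 2 of the females. CB509748 of beta 2 was at 0.71 ± 0.20, with ratios of 0.04, 0.90, -1.04 and 0.97 in females and 1.59, 1.36, 1.36 and 0.47 in males, and was higher on 7 of 8. CB496872 of beta 2 was at 0.61 ± 0.17 (adjusted p = 0.529 by limma).

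The mean ratio of the parvalbumin ESTs was 0.30, 0.05, -0.54 and 0.72 on the female arrays 10, 15, 29 and 40, and 1.08, 0.999, 0.26 and 0.69 on the male arrays 11, 19, 22 and 27. All but array 29 were above 0, where 5 of the 21 measured ESTs were higher in OSU/CW. Without array 29, 1 parvalbumin EST passed FDR 0.05, CB493603 with 0.96 (adjusted p = 0.0431 by limma). With all arrays, this EST was above the limit at 19 dpf in 2 of 7 measured OSU/CW embryos and 0 of 7 OSU/OSU embryos. Its difference thus lay mostly between signals not above the limit. Without array 19 the smallest adjusted p was 0.9996. Without array 40 the smallest was 0.737 (limma), for CB510281, whose difference was then 0.58. On array 40 the OSU/OSU female had 10.40 in this EST, with the other OSU/OSU females of 19 dpf at 12.28 to 12.41. The median ratio of all ESTs on these 8 arrays lay between -0.04 and 0.02. Among skeletal muscle markers 39 of 44 had a higher mean in OSU/CW at 19 dpf, with a median of 0.18, and among lens crystallins 38 of 45, with a median of 0.19. In each of these lists 0 ESTs passed FDR 0.05, and their part in the parvalbumin differences was not tested.

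**Figure D4:**
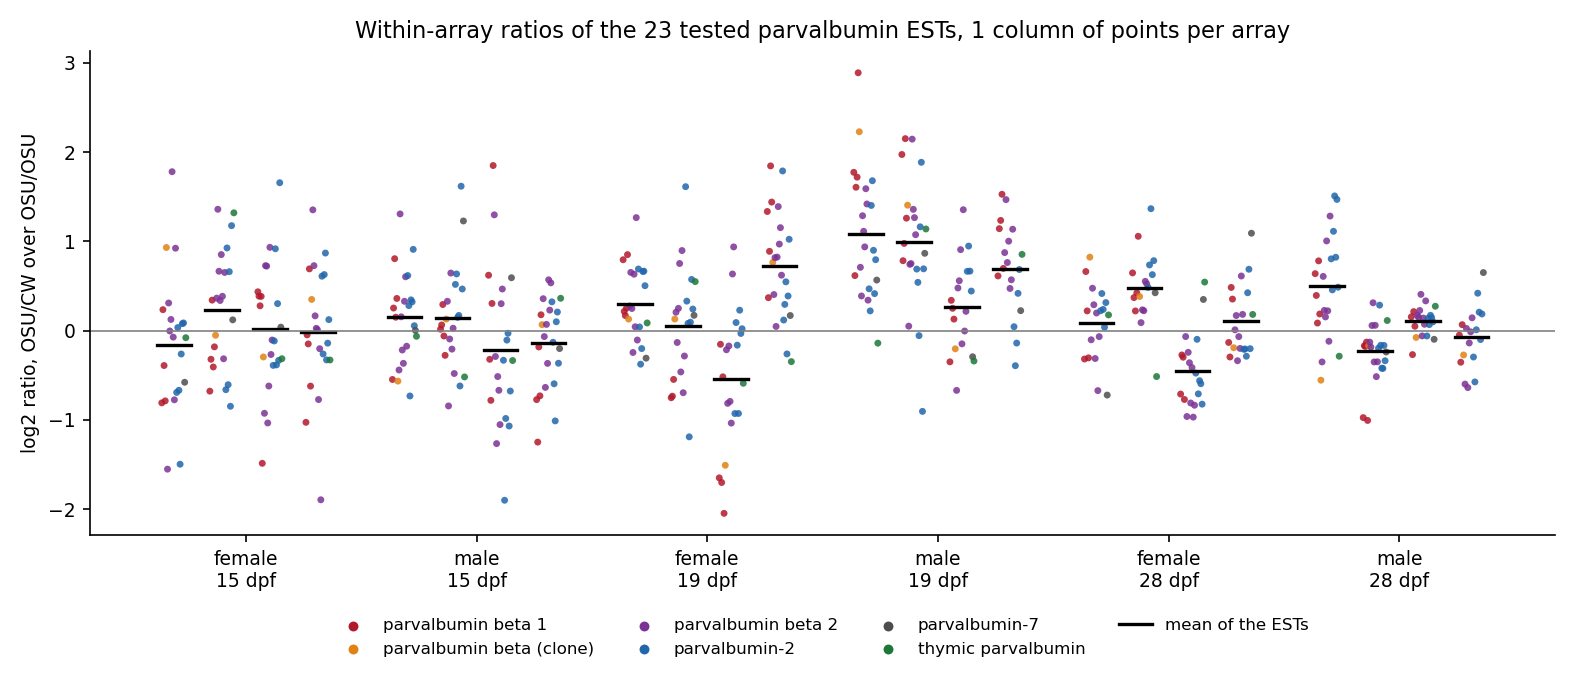
Log2 ratio of OSU/CW over OSU/OSU (vertical axis) for the tested parvalbumin ESTs on each of the 24 arrays, ordered by time and sex, with the form shown by colour and the mean of the ESTs as a line. On 7 of the 8 arrays of 19 dpf the mean lies above 0, between 0.05 and 1.08, and on array 29 it is -0.54, while the arrays of 15 and 28 dpf lie on both sides of 0.

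Agreement among ESTs of the same form was judged by the log2 ratio of each array, which leaves out differences in level between times and arrays but keeps the higher mean ratio at 19 dpf that the ESTs share. The 59 pairs of ESTs of a form had a median Pearson r of 0.35 over 17 to 24 arrays, with 54 above 0, and 13 pairs passed after Benjamini-Hochberg adjustment over the 59 pairs (permutation test, 100000 resamples, two-sided). By Spearman's rho 10 passed. Judged instead by the residuals of the 48 embryos from their group means, with 2 embryos on each array, the median r was 0.23 and 10 of the 59 passed. The 194 pairs of ESTs of different forms had a median r of 0.31, between -0.42 and 0.82, a description with no test. The median was 0.67 for beta 1 with the clone, 0.42 for beta 1 with beta 2 and 0.40 for beta 1 with parvalbumin-2. It was 0.29 for beta 2 with parvalbumin-2 and 0.06 for beta 1 with the thymic form. Within forms the medians were 0.30 in beta 2 and 0.35 in parvalbumin-2, so agreement was not confined to ESTs of a form.

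Beta 1 had the highest median of the forms over all arrays. Its 10 pairs had r of 0.34 to 0.82 with a median of 0.65, and 9 of them passed. Leaving out for each pair the 2 arrays farthest from the median, the median was 0.60. By residuals of the embryos the median was 0.42 and 5 of 10 passed. CA770081 and CB510281 were closest, with r of 0.82 and rho of 0.74 over 22 arrays (permutation p = 1e-05, the smallest the resamples can give, adjusted p = 0.000295), and 0.71 without the 2 farthest arrays. CB494458 and CB510281 had r of 0.79 and rho of 0.80 over 20 arrays. The clone's CK991248 had r of 0.41 to 0.73 with the 5 ESTs of beta 1 and 0.02 to 0.63 with the 8 of beta 2.

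In beta 2 the 28 pairs had r of -0.27 to 0.70 with a median of 0.30, and 3 passed. CB496355 and CB509748 were closest, with r of 0.70 and rho of 0.65 over 20 arrays (adjusted p = 0.0056, permutation test). Without the 2 farthest arrays their r was 0.48, and the median of the form was 0.27, or 0.19 by residuals. In parvalbumin-2 the 21 pairs had r of -0.08 to 0.54 with a median of 0.35, and 1 passed. The median was 0.30 without the 2 farthest arrays of each pair and 0.16 by residuals, where 3 passed.

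Agreement differed between times. Within times the pairs of a form had a median r of 0.10 at 15 dpf, 0.36 at 19 dpf and 0.70 at 28 dpf, and pairs of different forms 0.005, 0.50 and 0.45, each over at most 8 arrays and given as a description. In beta 1 the medians were 0.06, 0.86 and 0.78 at 15, 19 and 28 dpf. They were -0.04, 0.34 and 0.48 in beta 2 and 0.16, 0.14 and 0.81 in parvalbumin-2. Beta 1 was thus the highest of these forms at 19 dpf alone. Many of these spots were not above the limit at 15 dpf, and the part of this in the lower r was not tested. Without background subtraction 34 of the 59 pairs passed, 10 of 10 in beta 1, 11 of 28 in beta 2 and 13 of 21 in parvalbumin-2.

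**Figure D5:**
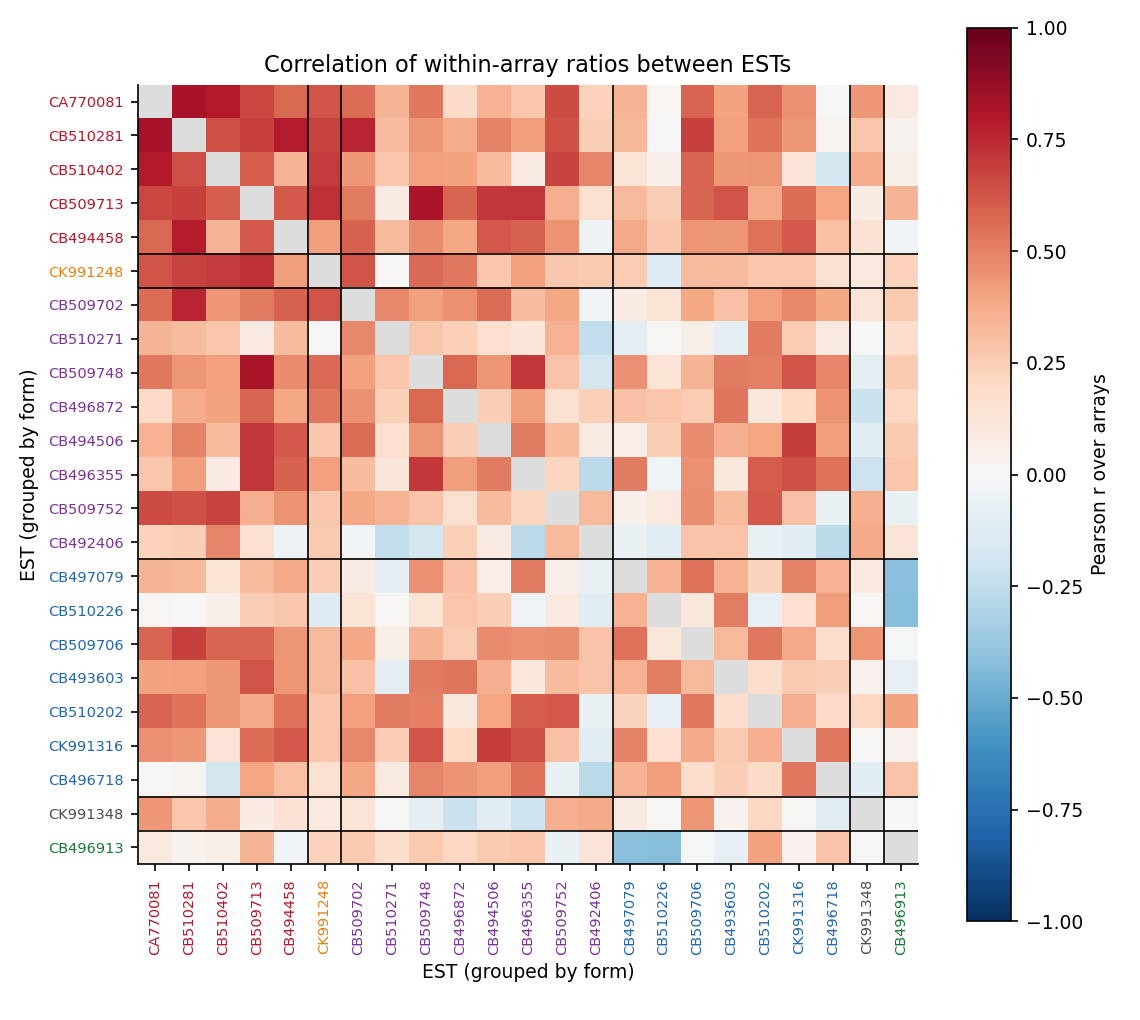
Pearson r (colour) between the log2 ratios, OSU/CW over OSU/OSU, of each pair of the 23 tested parvalbumin ESTs over the arrays on which both were measured, with ESTs grouped by form and black lines between forms. The block of beta 1 at the upper left is red throughout, at 0.34 to 0.82, while the thymic EST and CK991348 of parvalbumin-7 stay pale or blue against most others.

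Over the embryos, the ESTs outside the group whose log2 intensity was most like the mean of the parvalbumins also rose with age. CB496882, described as 26S proteasome non-ATPase regulatory subunit 12, had r of 0.97 over 44 embryos and rose by 5.86 between 15 and 28 dpf. It was followed by CB493574 (glyceraldehyde-3-phosphate dehydrogenase, cytosolic 2, 0.97 over 40), CB492654 (L-xylulose reductase, 0.96 over 42), CB493828 (a mitochondrial MOSC domain protein, 0.95 over 44) and CB497250 (H-2 class II histocompatibility antigen gamma chain, 0.95 over 44). These correlations share the differences between the 3 times. CB496882 also ranked first for beta 1, beta 2 and the clone. For beta 2 a fast skeletal troponin I, CB496805, was in rank 3 (0.96), and for parvalbumin-2 beta-enolase (CA057166), a glycolytic enzyme of muscle, ranked first (0.96 over 42). For parvalbumin-7 and the thymic form the highest r was lower, 0.72 over 38 embryos with transaldolase (CB497546) and 0.81 over 46 with SEC23-interacting protein (CA044751).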

How the data were processed

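RNA of 48 embryos was hybridized to 24 arrays with 2 channels. The authors deposited the linear intensity of each spot and its local background per channel, without normalization, and a table of scores for 10153 spots. Set against the intensities, each deposited score is a quotient of centred log intensities of Cy3 over Cy5, with the sign turned where OSU/CW was in Cy5. It is no log ratio, the log base cancels, and column medians ran between -1.10 and 1.07, so the scores served only to rebuild an alternative background. The study's methods removed dim features and fitted dye and treatment as fixed and array as random effects. Image software is not given in the sources used here.

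Here intensities were corrected with normexp (offset 50), normalized by loess within and Aquantile between arrays in limma 3.58.1 (R 4.3.3). Spots flagged poor in either channel (189 to 1446 per array) were left out. The 1003 blank, empty and Arabidopsis spots were the negative controls. One limma model held the 12 groups, dye and a correlation within arrays of 0.538, and p-values were adjusted over 11439 ESTs. Folds are on this log2 scale. The code was tested on simulated data. Precision is limited by 4 embryos per group and by signal over background.

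The members and lists were chosen with earlier results of these data known. In each form the text names CB510281, CB510226 and CB509706 where present, the EST with the highest mean and the one with the smallest p between 15 and 28 dpf. ESTs named otherwise are those a count, a call or a departure rests on, chosen after their values were seen. Also named are the 5 ESTs most like the mean of the members (and leading ones per form) and leading ESTs of each list. Alternatives changed background, normalization, filter, poor spots, dye term, arrays, model and rule for calls, and left out each array. No scan date is in the files. The EST identifiers had no match in the RefSeq table at hand, so no sequence or position is given.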

Additional observations from a re-analysis of the deposited data

Results flagged for a closer look

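In 7 of 90 groups of 4 embryos examined for the 11 ESTs followed embryo by embryo, 1 embryo stood far from the other 3, beside about 1 group in 20 by chance. CB510281 had 10.40 in the female OSU/OSU embryo of 19 dpf on array 40, with the others at 12.28 to 12.41. CB510226 had 12.67 in the male OSU/OSU embryo of 28 dpf on array 23 (others 13.75 to 13.91), and CB509706 had 8.78 in the male OSU/OSU embryo of 19 dpf on array 11 (others 9.35 to 9.36), which was not above the limit. CB494458 had 13.36 in the male OSU/CW embryo of 19 dpf on array 19 (others 12.71 to 12.82). CB496872 had 9.21 in the male OSU/CW embryo of 15 dpf on array 34 (others 10.32 to 10.45), also not above the limit. CB497079 had 14.21 in the male OSU/CW embryo of 28 dpf on array 28 (others 14.61 to 14.67). The thymic CB496913 had 11.01 in the female OSU/OSU embryo of 28 dpf on array 26 (others 11.77 to 11.92).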

How the results depend on the processing

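The counts of parvalbumin ESTs that rose between 19 and 28 dpf and between 15 and 28 dpf stayed at 20 to 22 of 23 under the 10 alternatives run, and at 22 whichever array was left out. All alternatives counted the same 23 ESTs. The one without the detection filter could therefore not add CB493149, which the filter had removed, and does not test the choice of ESTs. The earlier interval had 16, against 8 without background subtraction and 14 to 16 with an array left out. Other processing also lowered the earlier count. In beta 2 and parvalbumin-2, 7 of 8 and 3 of 7 rose there in the main fit. These were 6 and 1 with loess alone, and 6 and 2 with the authors' background. In the same interval CB509752 lost its call without male array 18 of 15 dpf (0.74), and CK991316 gained one without female array 13 of 15 dpf (0.83). The 24 calls between sexes became 12 without background subtraction, 11 with loess alone, 3 with an FDR of 0.2 over the 66 pairs without the overall test and 1 with an FDR of 0.2 over the 6 sex comparisons. They became 0 with only the arrays of a time and with an FDR of 0.2 or 0.05 within each comparison, and 15 (without male array 11 of 19 dpf) to 26 with an array left out. Calls between genotypes were 0, or 1 without female array 29 of 19 dpf, and those between sexes with genotypes averaged stayed at 0. Pairs of ESTs whose ratios correlated numbered 13, against 34 without background subtraction, and the median r ran between 0.59 and 0.73 (beta 1), 0.23 and 0.33 (beta 2) and 0.22 and 0.41 (parvalbumin-2) with an array left out. Uncalled differences changed sign in 4 ESTs. For CK991348 the difference between 15 and 19 dpf was 0.044 without background subtraction and -0.30 to 0.043 with an array left out (highest without female array 15 of 19 dpf). With loess alone it was -0.26 between 19 and 28 dpf and -0.50 between 15 and 28 dpf, where the medians of all ESTs were -0.61 and -0.54. Between genotypes at 19 dpf it was -0.057 (without array 15) to 0.26. For CB496913 the difference between 15 and 19 dpf was 0.025 with the authors' background and -0.33 to 0.11 (without male array 19 of 19 dpf). Between genotypes at 19 dpf it was -0.037 without background subtraction, -0.096 with the authors' background and -0.0054 (without array 19) to 0.30. CB509706 had -0.26 between genotypes at 19 dpf with the authors' background, and CB492406 had -0.34 to 0.31 (without male array 34 of 15 dpf) between 15 and 19 dpf. The authors' background moved the median of all ESTs to 0.17 and 0.25 in the later interval and between 15 and 28 dpf. Where no value or construction shows it, the cause was not tested. The alternative that asked for a signal above the limit in all 48 channels left 0 parvalbumin ESTs. Ratios less the dye effect (13 pairs) were chosen after seeing the data. Genotypes were paired by array in the fit. Between sexes and between times no paired analysis was possible because those groups share no array and no replicate numbers. Signal over background limits the results at 15 dpf most.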
